A study of Caenorhabditis elegans with 2 samples.

Results

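Where NFYB-1 lay along 9 genes for actins and the contractile filaments of body-wall muscle was described from chromatin immunoprecipitation and sequencing of whole worms. The genes were a fixed list of names, drawn up with earlier results of these data known. They were the actin genes act-1 to act-5, the paramyosin gene unc-15, the myosin heavy chain genes unc-54 and myo-3, and the attachment gene unc-112. All 9 were found among the 19973 protein-coding genes annotated on the nuclear chromosomes. A region was given to a gene where its summit lay from 1000 bp upstream of any annotated start to the gene's end. It was called a promoter region up to 200 bp past a start, and a gene-body region beyond that. Of the 3890 regions in the conservative list, the stricter whole-series list by its name, 8 fell to 6 of the genes.

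The material was Caenorhabditis elegans strain RW12190, in which allele st12190 adds TY1, EGFP and 3xFLAG to the nfyb-1 gene itself. Per the labels, worms were young adults of 65 hours that had been synchronised as starved first-stage larvae. Chromatin was sonicated to 200 to 800 bp and precipitated through the GFP tag. The series had 1 group with 2 biological replicates, and no untagged or untreated group was analysed here. Muscle, intestine and germline were precipitated together, so the tissue behind a region cannot be told apart.

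NF-Y is a complex of A, B and C subunits that binds the CCAAT box, and NFYB-1 is a B subunit of the worm. Body-wall muscle of the worm is built from sarcomeres. In them myosin thick filaments, with a core of paramyosin, pull on actin thin filaments that are anchored at dense bodies in the muscle membrane. The actins ACT-1 to ACT-4 are nearly the same protein and serve muscle, and some of them other cells. ACT-5 is best known from the microvilli of the intestine, so its gene is an actin gene but not a gene of body-wall muscle filaments.

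The sequences at 4 of the summits are shown because they set the strongest region beside regions with other or no boxes. Each is the 91 bases centred on a conservative-list summit, written 5′ to 3′ on the gene's own strand from the RefSeq copy of WBcel235, the assembly also called ce11. Capitals mark CCAAT on either strand, TATAAA on either strand, and the CArG box, the known site of the muscle and actin regulator SRF. The act-4 stretch lies at chrX:4960530-4960620 (plus strand), that of act-2 at chrV:11078551-11078641 (minus strand), that of act-5 at chrIII:13605810-13605900 (minus strand) and that of unc-112 at chrV:14697003-14697093 (minus strand).
act-4, 46 bp upstream: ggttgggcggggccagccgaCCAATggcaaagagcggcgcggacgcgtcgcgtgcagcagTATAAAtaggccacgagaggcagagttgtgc
act-2, 442 bp upstream: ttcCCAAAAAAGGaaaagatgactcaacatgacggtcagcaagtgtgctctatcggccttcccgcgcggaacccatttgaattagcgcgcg
act-5, 211 bp downstream: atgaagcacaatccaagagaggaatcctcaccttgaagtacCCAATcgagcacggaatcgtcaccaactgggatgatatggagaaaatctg
unc-112, 394 bp upstream: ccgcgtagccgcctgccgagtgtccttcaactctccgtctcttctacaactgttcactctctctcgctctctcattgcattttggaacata
The act-4 stretch ends at the last base before the annotated start. It holds CCAAT on the far side of the summit and TATAAA between the summit and the start. The act-2 stretch holds a CArG box and no CCAAT, the act-5 stretch is coding sequence with CCAAT almost at the summit, and the unc-112 stretch holds none of the marked boxes.

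In the conservative list, 5 of the 9 genes had a promoter region (55.6%), namely act-2, act-3, act-4, unc-15 and unc-112. By the same rule 9.61% of all protein-coding genes had one. A gene-body region was present at 1 of the 9, act-5, against 5.40% of all genes, and 6 of the 9 had a region of either kind, against 13.7%. The genes of the list range in length from 1364 to 7582 bp, and among the 12298 coding genes in that range 9.65% had a promoter region. No test was made of these shares. The genes were listed when it was already known that unc-15, unc-112 and act-4 had promoter regions in these data, so the excess is not independent evidence.

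Fewer of the genes had promoter regions at the highest score, in the replicates' own lists and with a narrower promoter. The share of all genes fell in each case as well. Regions with the highest possible score, 1000, lay at the promoters of 3 of the 9 genes, act-2, act-4 and unc-112, against 7.43% of all genes. The thresholded list of replicate 1 alone gave 1 of 9, act-4, against 4.85% of all genes. That of replicate 2 alone gave 2 of 9, act-2 and act-4, against 6.52%. Regions of the conservative list that overlapped both replicates' own lists gave 1 of 9, act-4, against 3.97%. Gene-body regions were called at 0 of 9 genes at score 1000 (all genes 3.49%), 0 of 9 in the replicate 1 list (all genes 2.21%) and 0 of 9 with both lists (all genes 1.63%). The replicate 2 list had 1 of 9, act-2 (all genes 3.09%). Regions of either kind were at 3 of 9 genes at score 1000 (all genes 10.2%), 1 of 9 in the replicate 1 list (all genes 6.73%), 1 of 9 with both lists (all genes 5.43%) and 2 of 9 in the replicate 2 list (all genes 8.94%). The other, longer whole-series list gave the same 5 promoter genes, the same gene-body gene and so the same 6 in all, against 9.74%, 5.68% and 14.0% of all genes. With the promoter narrowed to 250 bp upstream and 100 bp downstream, the conservative list gave promoter regions at 2 of 9 genes, act-4 and unc-15 (all genes 4.58%), and gene-body regions at 2 of 9, act-4 and act-5 (all genes 6.28%). With the most upstream start alone, gene-body regions were at the same 2 genes (all genes 6.26%). The call at act-4 was thus made in every list compared, and the calls at act-3, act-5, unc-15 and unc-112 in neither replicate's own thresholded list. Those lists were shorter, with 1734 regions in replicate 1 and 2433 in replicate 2. Of all 3890 conservative-list regions, 1291 (33.2%) overlapped both, so absence from 1 or both was common in the whole list.

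**Figure D1:**
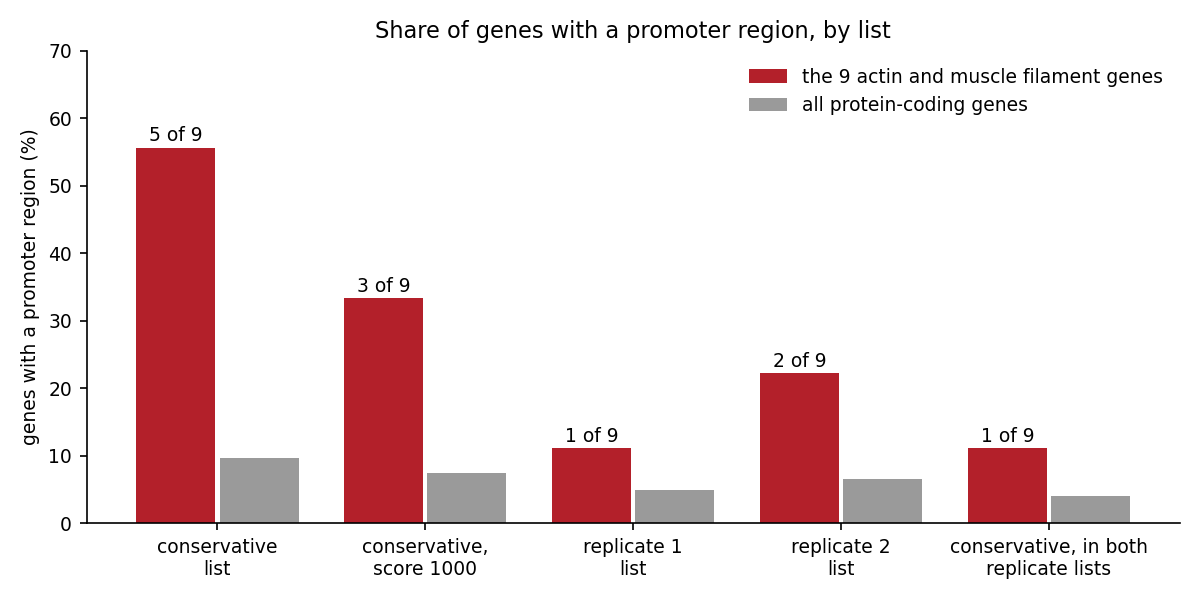
The plot shows the percentage of genes with a promoter region in 5 lists of regions, with red bars for the 9 actin and muscle filament genes and grey bars for all 19973 protein-coding genes. The red bars run from 5 of 9 in the conservative list down to 1 of 9 where both replicates' own lists had to hold the region.

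The actin gene act-4 had the strongest region of the 9 genes, 46 bp upstream of its first start, at chrX:4960454-4960716. Its deposited signal, the caller's own value per region, was 507 in the conservative list, at rank 113 of 3890. In the replicates' ranked lists the overlapping regions had signals of 209 in replicate 1 and 293 in replicate 2, at ranks 143 and 100 (mean 251 ± 59.0, SD, n = 2). Both values lay above those of every other region at the 9 genes in either replicate, of which the highest was 117. The region was in the thresholded lists of both replicates.

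A second act-4 region, at chrX:4962212-4962587, lay in an intron, 1779 bp past the first start and 475 bp upstream of an inner one. ACT-4 transcripts can begin at either annotated start, so this region counts as a promoter region of the shorter form and as a gene-body region if the first start alone is used. Its signal was 135 in the conservative list, and 80.2 and 72.5 in replicates 1 and 2 (mean 76.4 ± 5.47, SD, n = 2). It too was in both replicates' thresholded lists, with a signal below that of the first act-4 region in each replicate.

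Upstream of act-2, a gene of the chromosome V actin cluster, the region at chrV:11078408-11078783 had a signal of 180 in the conservative list, at rank 964. Its summit lay 442 bp before the start, inside the annotated non-coding RNA gene T04C12.18, whose start was 28 bp away, and inside T04C12.24. The replicates differed here, with 54.03 in replicate 1 and 117 in replicate 2 (mean 85.8 ± 44.9, SD, n = 2). That is a log2 ratio of replicate 2 over replicate 1 of 1.12, whereas the median over the 3825 conservative-list regions matched in both replicates was 0.24 (upper quartile 0.49). The replicate 2 region was in its thresholded list and the replicate 1 region was not. The thresholded list of replicate 2 also held an act-2 region 273 bp past the start, with a signal of 48.9, and an overlapping one 64 bp past it, with a signal of 3.38.

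The act-3 region, at chrV:11074669-11075044, lay 359 bp upstream of that gene's first start and was among the weakest of the conservative list. It had a signal of 85.0 at rank 3564, with 50.9 in replicate 1 and 47.7 in replicate 2 (mean 49.3 ± 2.29, SD, n = 2). Its score, a scaled irreproducible discovery rate (IDR) that measures how well a region's rank repeats, was 882, close to the lowest score of the list, 830.

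The third gene of the cluster, act-1, lay just outside. Its strongest region in the whole-series ranked list had its summit 646 bp upstream, a signal of 107 and a score of 769. In the replicates' ranked lists it had 36.9 and 64.9 in replicates 1 and 2, so the signal exceeded that of act-3 in replicate 2 and not in replicate 1. The nearest conservative-list summit to act-1 was 312 bp past the gene's end, inside T04C12.29, with a signal of 113. That region is outside the span used here and was not counted.

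The intestinal actin gene act-5 was the only one of the 9 with a gene-body region in the conservative list, at chrIII:13605667-13606042, whose summit fell in a coding exon 211 bp past the start. The promoter window ended at 200 bp. The region matched to it in replicate 2 had its summit inside that window, 196 bp past the start. The signal was 97.4 in the conservative list, and 59.9 and 48.4 in replicates 1 and 2 (mean 54.1 ± 8.10, SD, n = 2). Its scores in the replicates' ranked lists were 257 and 80, and neither thresholded list held it. A region 282 bp upstream of act-5 was in the ranked list alone, with a signal of 79.6 and a score of 697. The regions overlapping that one had 35.3 in replicate 1, below the coding region, and 55.6 in replicate 2, above it. Their scores were 231 and 494.

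Paramyosin, encoded by unc-15, had a pair of overlapping regions at its first start, at chrI:7383052-7383427 and chrI:7383252-7383627. Their summits lay 43 and 243 bp upstream, their signals were 98.4 and 55.7, and both had a score of 891, so they may not be separate sites. In replicate 2 the ranked region nearest to both had a signal of 46.1, and in replicate 1 no ranked region overlapped either. Replicate 1 had its strongest unc-15 promoter region, at 44.7, 6 bp upstream of the inner start instead.

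UNC-112, the worm kindlin, joins the muscle filaments to the integrins of the membrane. Its gene had 1 region, at chrV:14696860-14697235, 394 bp upstream of the start, with a signal of 127 at rank 1895. The replicates had 70.2 and 59.0 (mean 64.6 ± 7.92, SD, n = 2). Neither replicate's own thresholded list held the region, with scores of 685 and 647 in the ranked lists of replicates 1 and 2.

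The myosin heavy chain genes, unc-54 for the main and myo-3 for the central part of body-wall thick filaments, had no region in the conservative list. Their nearest conservative-list summits lay 17659 bp from the unc-54 start and 41764 bp from the myo-3 start. In the ranked list unc-54 had 17 regions, the highest with a signal of 84.1 and a score of 490, 3804 bp into the gene. The overlapping regions had 47.1 in replicate 1 and 33.1 in replicate 2. For myo-3 there were 11 ranked regions, the highest with a signal of 62.5 and a score of 211, 4653 bp into the gene, with 40.5 in replicate 1 and 23.7 in replicate 2. Near their starts the strongest ranked regions reached 50.5 at unc-54 and 24.2 at myo-3, and replicate 1 listed none there for either gene.

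Presence in a ranked list says little by itself. All 9 genes had ranked promoter and gene-body regions in the whole-series ranked list, where 60.9% of coding genes had a promoter region and 60.8% a gene-body region. A ranked promoter region was present at 7 of the 9 in replicate 1, against 48.8% of all genes, and at 9 of the 9 in replicate 2, against 59.9%. Of the 68 ranked regions at the 9 genes, 60 were not in the conservative list, with a median signal of 32.8 and a highest of 107. The 8 that were had a median of 113 against 126 for the whole conservative list, and apart from the first act-4 region their ranks ran from 964 to 3689 of 3890.

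**Figure D2:**
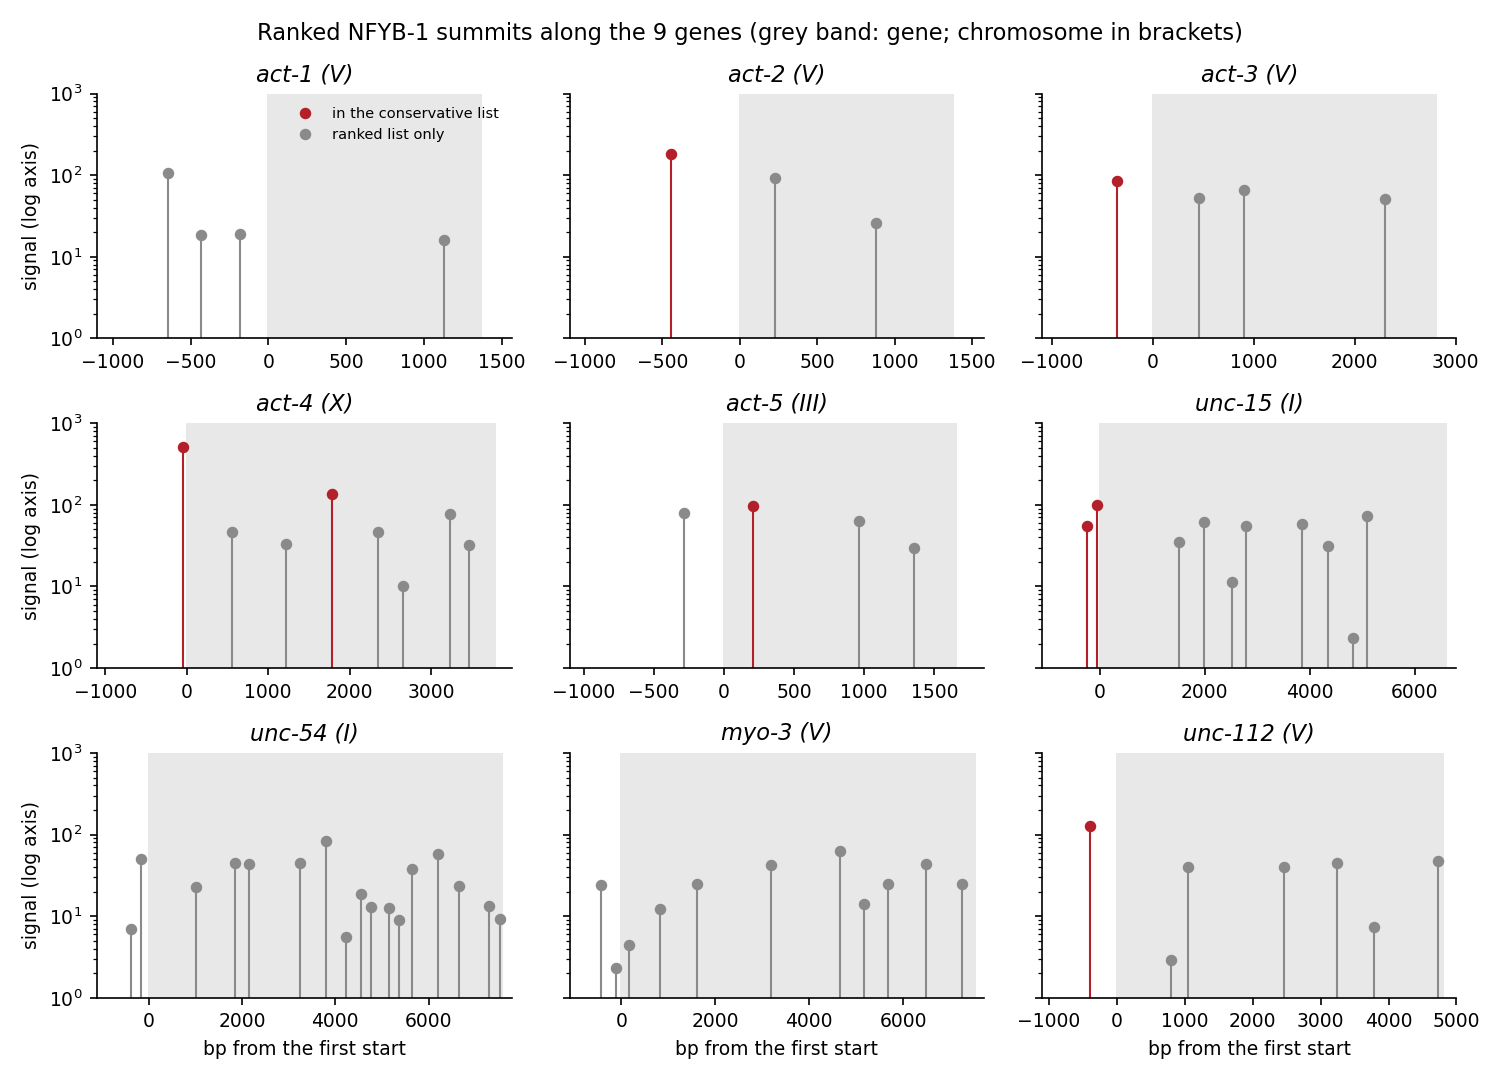
The map plots, for each gene, the summits of the whole-series ranked list by their distance from the first annotated start in bp, with the deposited signal on a log axis, the gene as a grey band and the chromosome in brackets. Red summits were in the conservative list and grey ones were not, and the myosin genes unc-54 and myo-3 carry grey summits alone along their length.

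Ordered by the mean over the replicates, the regions with a match in both were the first act-4 region, act-2, the second act-4 region, unc-112, act-5 and act-3. The first act-4 region stood apart from the rest in both replicates. The act-2 values span those of the second act-4 region and of unc-112, and overlap those of act-5. The act-2 region lay below these regions in replicate 1 and above them in replicate 2. The ranges of unc-112 and act-5 overlap, as do those of act-5 and act-3, but their order held within each replicate. In replicates 1 and 2, unc-112 had 70.2 and 59.0, act-5 had 59.9 and 48.4, and act-3 had 50.9 and 47.7. No test was made of these differences. The second act-4 region lay above unc-112 in each replicate, although its lower value, 72.5, was only just above the higher unc-112 value, 70.2.

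**Figure D3:**
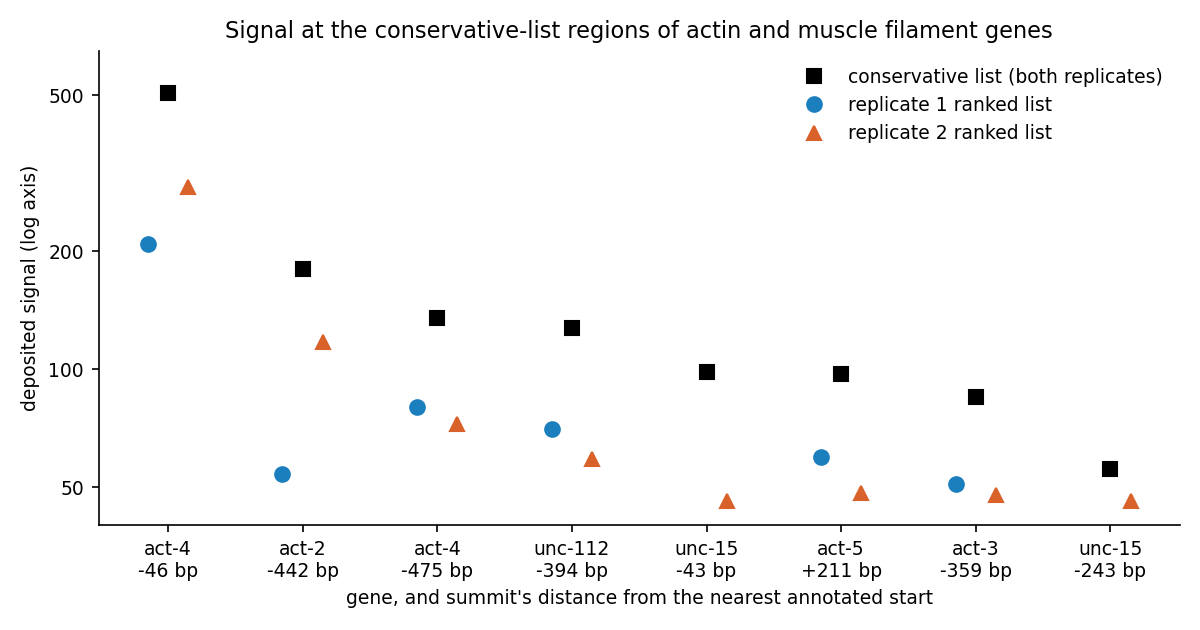
The plot shows the deposited signal, on a log axis, of the 8 conservative-list regions at the 9 genes, with squares for the conservative list and circles and triangles for the overlapping regions in the ranked lists of replicates 1 and 2. The act-4 region 46 bp upstream is highest in all of them, act-2 has the widest gap between replicates, and the unc-15 regions have no replicate 1 value.

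The box that NF-Y binds was searched within 100 bp of each summit on both strands. CCAAT was present at 5 of the 8 regions, and at 36.9% of the 3879 conservative-list summits on nuclear chromosomes and 32.3% of windows of the same length upstream of coding gene starts. Within 50 bp it was present at 2 of the 8, the first act-4 region and act-5, and at 23.4% of all summits, so at that distance the share was near the background. The other 3 boxes lay 57, 80 and 84 bp from their summits. A longer pattern was CCAAT with 2 purines before it and C or G and then a purine after it, so every match also counts as CCAAT. It was present at 1 of the 8, the first act-4 region, against 8.38% of summits and 1.46% of upstream windows. In act-4 the pattern was centred 23 bp before the summit on the gene's strand. Of the whole promoter windows of the first starts of the 9 genes, that of act-4 alone held the longer pattern, against 11.0% of all coding genes, while CCAAT itself was in all 9 and in 92.5% of all coding genes.

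Other short sequences differed among the regions. TATAAA lay within 100 bp of the summit at act-4 alone, centred 18 bp after it, against 12.9% of all summits. The CArG box lay at act-2 alone, centred 38 bp before the summit, against 0.825% of all summits. CGCGC, whose matches overlap each other and occur on both strands, was present at act-2 with 5 matches, at the first act-4 region with 1, and at the unc-15 regions with 1 and 2, against 25.3% of all summits. CAGCTG, a form of the E-box bound by muscle bHLH factors, was at none of the 8, against 5.77% of all summits. Windows of the same length upstream of coding gene starts held TATAAA in 30.5% and the CArG box in 0.881%. They held CGCGC in 10.3% and CAGCTG in 3.44%. The GC content of the 201 bp at the summits ran from 31.3% at act-3 to 57.7% at the first act-4 region, and the median over all summits was 43.8%.

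The coding CCAAT at the act-5 summit is shared by the other actins, which makes the family a comparison of 1 short stretch in 5 places; it was chosen after its position was seen. The stretches of 31 coding bases below are the same codons of each gene in WBcel235, written 5′ to 3′ on the gene's strand with CCAAT in capitals. They lie at chrIII:13605842-13605872 (minus strand) in act-5, chrV:11077855-11077885 (minus strand) in act-2, chrX:4962940-4962970 (plus strand) in act-4, chrV:11081318-11081348 (plus strand) in act-1, chrV:11072968-11072998 (minus strand) in act-3.
act-5: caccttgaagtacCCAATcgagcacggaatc
act-2: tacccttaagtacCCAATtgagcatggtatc
act-4: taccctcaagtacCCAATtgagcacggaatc
act-1: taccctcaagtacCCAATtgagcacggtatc
act-3: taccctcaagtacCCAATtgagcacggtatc
The stretches of act-4, act-1, act-3 and act-2 shared 27, 26, 26 and 25 of the 31 bases with act-5. The nearest summit in the whole-series ranked list lay 2 bp from the box in act-5, with a score of 942. It lay 15 bp away in act-4, with a score of 442 and a signal of 45.9, and 55 bp away in act-2, with a score of 715 and a signal of 93.4. The act-2 summit fell in an intron. In replicate 2 a region there in act-2 was in the thresholded list with a score of 939 and a signal of 48.9. In replicate 1 the act-2 region there had a score of 133 and a signal of 37.2, and was not in the thresholded list. The act-4 regions there had scores of 28 in replicate 1 and 164 in replicate 2. The nearest ranked summits to the box in act-1 and act-3 were 462 and 608 bp away.

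How far reads can be placed differs between these genes. The coding sequences of act-1 and act-3 were the same at 1128 of 1128 bases, and so were their 376 residues. ACT-2 and ACT-4 had 99.2% and 99.7% of residues in common with ACT-1, and ACT-5 had 92.3%. Within 200 bp of the coding box, 100% of 50-base stretches in act-1 and in act-3 also occurred elsewhere in the genome, against 6.25% in act-2, 0.284% in act-4 and 0% in act-5. Over whole genes the share was 86.2% in act-1, 40.9% in act-3, 26.3% in act-2, 2.94% in act-4 and 0% in act-5. The treatment of reads with more than 1 match is not given in the sources used here, and its part in the distance of ranked summits from the box in act-1 and act-3 was not tested.

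At all 8 conservative-list regions of the 9 genes, by contrast, no 50-base stretch within 200 bp of the summit occurred elsewhere, which was so at 80.4% of all conservative-list summits. The strong act-4 region and the promoter regions of act-2 and act-3 thus lay in sequence of their own. With stretches of 30 bases, the highest share was 5.38%, at act-5.

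**Figure D4:**
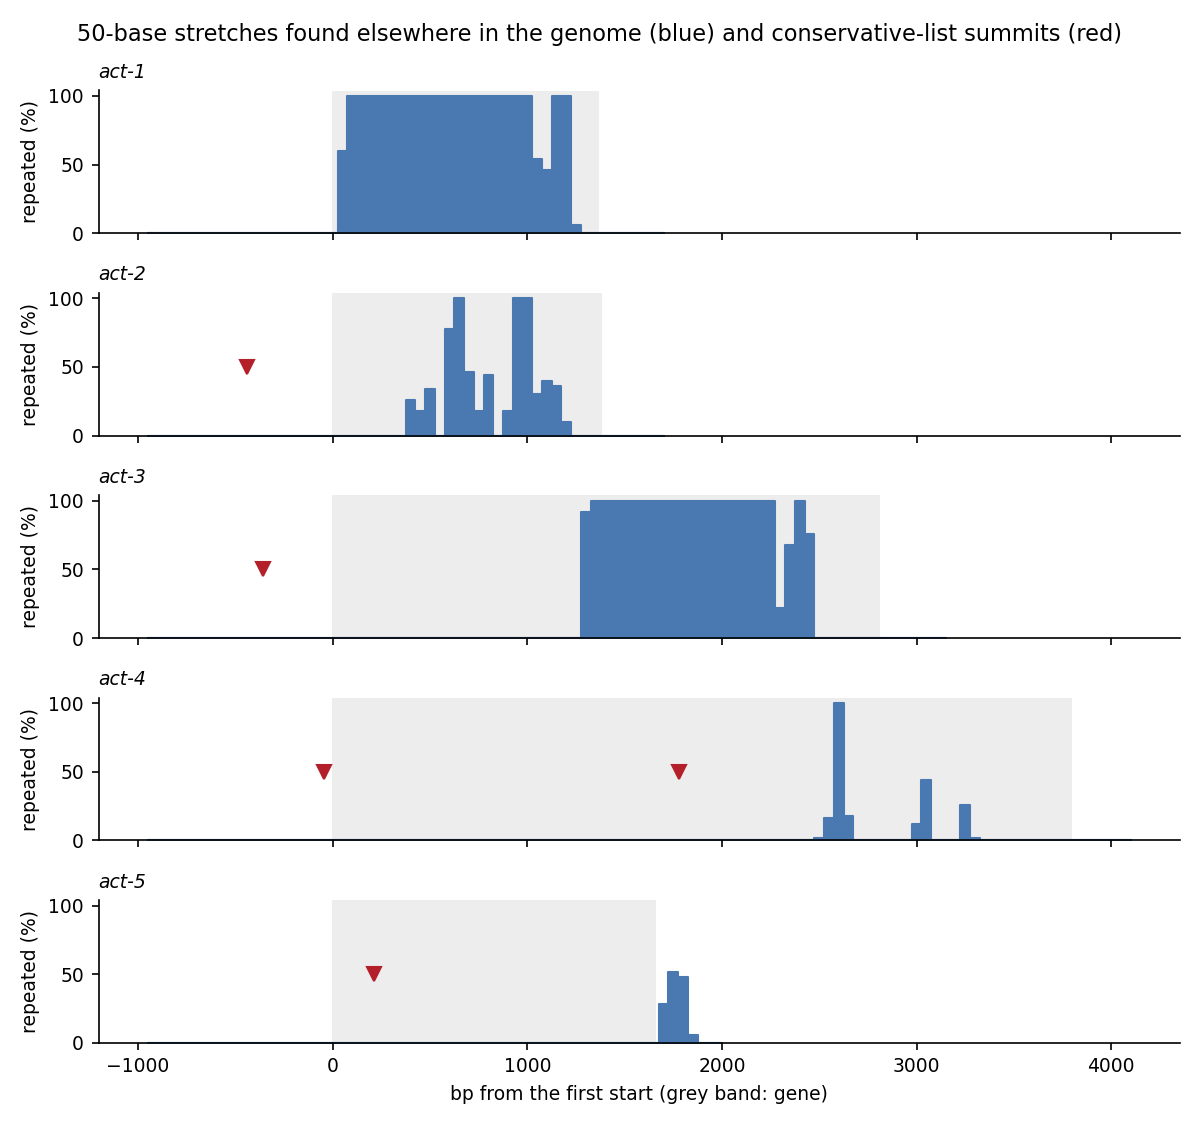
Blue areas give the percentage of 50-base stretches found elsewhere in the genome, in steps along each actin gene by distance from its first start in bp, with the gene as a grey band. Red triangles, drawn at a fixed height, mark conservative-list summits, which lie away from the blue blocks that fill most of act-1 and the coding part of act-3.

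Other genes of the same machinery had promoter regions about as often as all genes. Of 82 further genes matched to the annotation, in lists for thick filaments, thin filaments, attachment and non-muscle actomyosin, 9 had a promoter region in the conservative list (11.0%), against 9.61% of all genes. The same 9 of the 82 (11.0%) had one at score 1000, against 7.43% of all genes. A gene-body region was present at 7 of the 82 (8.54%), against 5.40% of all genes, and a region of either kind at 16 of the 82 (19.5%), against 13.7%. Thick filament and M-line genes had 1 of 14, the regulatory light chain gene mlc-2, with a signal of 105 in the stronger of 2 regions. Both mlc-2 regions matched a ranked region of replicate 1, with a signal of 51.3, and none of replicate 2. Neither replicate's own thresholded list held them. Attachment genes had 1 of 24, unc-23, which encodes a BAG-domain cochaperone needed for muscle attachment, with a signal of 264 and with 122 and 133 in replicates 1 and 2.

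Thin filament and actin turnover genes had 4 of 22 (18.2%), against 9.61% of all genes. The actin capping gene cap-2 had a signal of 555, the highest of all these genes, with 281 and 271 in replicates 1 and 2 (mean 276 ± 7.17, SD, n = 2). That lay beside the first act-4 region, whose replicate values span those of cap-2, so their order did not hold in both replicates. The cap-2 summit was 220 bp upstream, and the start of gmps-1 was 256 bp away from it. The profilin gene pfn-2 had 157, the cofilin gene unc-60 had 125, with the start of F53E2.2 equally near at 396 bp, and the tropomodulin gene unc-94 had 102.

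Non-muscle actomyosin genes had 3 of 22 (13.6%), near the 9.61% of all genes. The WAVE gene wve-1 had a signal of 343, although the start of R06C1.4 was nearer to its summit, at 613 against 636 bp. The WAVE complex gene gex-3 had 157, and the anillin gene ani-1 had 148 in the stronger of 2 regions. Where both replicates' own lists had to hold the region, 5 of the 82 genes kept a promoter region, against 3.97% of all genes. These were ani-1, cap-2, pfn-2, unc-23 and wve-1.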

How the data were processed

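Per the deposited description files, the authors called regions on ce11 and compared them by IDR. No aligner or caller is named in the sources used here. A control named in the labels was not used here. The 8 deposited lists were 4 thresholded and 4 ranked ones. Each region has a deposited score (the scaled IDR, at most 1000), a deposited signal of unstated scale, and in ranked lists a deposited −log10 of the IDR, which was read and not printed. The conservative list came from both replicates' alignments, so its signals and those of a replicate are on different scales. In the headerless whole-series ranked lists, 4 unnamed signal columns were not used. Sequencing depth is unknown, so no value has an interval.

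Starts came from Ensembl 115 for WBcel235, with coordinates counted from 1. A replicate's signal at a region is that of the overlapping ranked region with the nearest summit (overlap of 1 bp or more), and means and SDs are of unscaled signals. No test was made, since there was 1 group. Of the 83 further genes, named by general knowledge, 1 (tni-2) was not matched to the annotation. The genes and lists were chosen with earlier results of these data known. All 9 genes are named, and of the other lists each gene with a promoter region in the conservative list. Region classes, motif search and repeated stretches were tested on made-up data. Computation used Python 3.11.15, pandas 2.3.3 and Biopython 1.88. Alternatives were other lists, scores, overlaps, promoter windows, starts, motif windows and stretch lengths, and single replicates.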

Additional observations from a re-analysis of the deposited data

How the results depend on the processing

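Of the 9 genes, 5 had a promoter region in the conservative list (all genes 9.61%). Such genes numbered 3 at score 1000 (all genes 7.43%) and 1 with overlap of both replicates' lists by 1 bp (all genes 3.97%). They numbered 1 with overlap by 50% and 2 with a promoter of 250 bp upstream to 100 bp downstream (all genes 4.58%). No share of all genes is given for the 50% overlap. The thresholded list of replicate 1 alone gave 1 (all genes 4.85%) and that of replicate 2 alone 2 (all genes 6.52%). These are the replicates' own lists, and no list was called again without a replicate. Genes with a gene-body region numbered 1 (all genes 5.40%), against 0 at score 1000 (all genes 3.49%). With overlap of both lists they numbered 0 by 1 bp (all genes 1.63%) and 0 by 50%. The list of replicate 1 alone gave 0 such genes (all genes 2.21%) and that of replicate 2 alone 1 (all genes 3.09%). Genes with a gene-body region numbered 2 with the narrow promoter (all genes 6.28%) or the most upstream start alone (all genes 6.26%). In both cases act-4 joined act-5. With only replicate 2 the single gene was act-2 instead of act-5. Genes with a region of either kind numbered 6 (all genes 13.7%), against 3 at score 1000 (all genes 10.2%). With overlap of both lists they numbered 1 by 1 bp (all genes 5.43%) and 1 by 50%. The list of replicate 1 alone gave 1 (all genes 6.73%) and that of replicate 2 alone 2 (all genes 8.94%). Of the 82 other muscle and actin genes, 9 had a promoter region. They became 5 with overlap of both lists by either measure (all genes 3.97% by 1 bp) and 5 with the narrow promoter (all genes 4.58%). With replicate 1 alone they were 5 (all genes 4.85%), and with replicate 2 alone 7 (all genes 6.52%). CCAAT was at 5 of 8 summits within 100 bp and at 2 within 50 bp, where 23.4% of all summits had it.

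The cause was not tested. Of 46 recomputed values, 23 stayed within 1.5 times the first value or within the spread between replicates. Among them were all at the other whole-series list, the median replicate signal and the longer CCAAT pattern. Numbers of genes were compared and not their names. The gene-body count of replicate 2 alone was thus among the 23, although act-2 took the place of act-5. No paired analysis was possible because there was only 1 group.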
